A study of Mus musculus with 30 samples.

Results

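The first postnatal week of the control mouse ventricle was described from 6 arrays, 3 of ventricles at postnatal day 1 (P1) and 3 at postnatal day 7 (P7). They were chosen by their labels from the 30 arrays of a series that covers 5 ages in 2 genotypes. Control mice carried the MCK-Cre transgene, which expresses Cre recombinase from the muscle creatine kinase promoter in heart and skeletal muscle, and their genotype label lists no floxed allele. They were male, per the study's methods, and of an FVB/B6 hybrid strain. The comparison group used here, Sox6 KO, combined the same transgene with Sox6loxp/loxp alleles on the same strain, at P1 and P7 with 3 arrays each, so that Sox6 can be deleted only in cells in which that promoter has been active. Control ventricles of P14, with 3 arrays, give the change in the next week. Each array was a 1-colour Illumina bead array on which biotin-labelled RNA of a whole ventricle was read as the signal intensity of each probe. The design describes the 3 replicates of a group as biological, while the methods also speak of triplicate hybridisation of every biological replicate, which 3 arrays per group do not hold. The sources used here do not settle this, nor whether animals were pooled, so that n = 3 counts arrays. The p-values rest on the spread between arrays of the same group, estimated jointly over all 30 arrays of the series. Part of that spread may be technical.

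At birth the heart muscle leaves a low-oxygen circulation in which it burns mostly glucose and lactate, and within days it turns to milk-fed fatty acids as its main fuel. Over the same days cardiomyocytes divide for the last time, exchange fetal for adult isoforms of sarcomere and mitochondrial proteins, and build the membrane systems that release and take back calcium. Capillaries, fibroblasts and their matrix, and resident immune cells expand between the muscle cells as the ventricle grows.

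Values below are log2 of the normalized intensity. A change is the P7 mean minus the P1 mean on that scale, where 1 means a doubling, and comes from limma with p-values adjusted by Benjamini and Hochberg over all 17997 probes tested. A probe is called when its adjusted p is under 0.01 and its change at least 1.5-fold, and within a gene list a member is counted, in either direction, once its adjusted p is under 0.05. The signal of empty probes was not subtracted, so that folds of dim genes are understated, and levels of different probes are not compared. The RNA is that of a whole tissue, in which fewer cells of a type and less RNA per cell cannot be told apart.

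Between 17253 and 17954 probes were above the negative controls on each P1 array, and between 17559 and 17724 on each P7 array. Log2 signals of replicates correlated at 0.983 to 0.993 among the P1 arrays and at 0.995 among the P7 arrays (Pearson, across probes, which are not independent). The first principal component of the 6 arrays held 66.2% of the variance and separated the ages. The second held 17.5% and set P1 replicate 1, at 21.2, apart from P1 replicate 2, at -13.5, and P1 replicate 3, at -2.08. Of the defining markers of ventricular cardiomyocytes, 7 of 8 were measured and above background on all 6 arrays, with a summed linear intensity of 1.569e+05 to 1.88e+05 at P1 and 1.663e+05 to 1.867e+05 at P7. Such a sum mainly follows its brightest probes. Defining markers of skeletal muscle, nerve, fat, and liver and thymus had no named probe among those tested. Since the names largely leave out genes at background at some age, this does not show that these tissues were absent. All 4 markers of erythroid cells were measured, and none passed the test in either direction on the probe used. Another probe of *Hbb-b1* rose by 0.79 (limma, adjusted p = 0.0263), while the rest of its probes did not pass. *Hbb-b1* and *Slc4a1* are named only through the study's supplementary table of genotype differences.

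From P1 to P7, 511 probes were called higher, 2.84% of those tested, and 403 were called lower, 2.24%. At an adjusted p under 0.05 with no minimum fold, 12.1% of the probes were higher and 12.5% lower. The median change over all probes was -0.01. Most called changes were modest, with a median of 1.7-fold among the higher and 1.69-fold among the lower probes. At least a 2-fold change was reached by 114 of the higher and 113 of the lower probes, and at least a 4-fold change by 6 and 15. The P1 and P7 arrays did not overlap for 503 of the 511 higher and 392 of the 403 lower probes. Over all probes tested, 18.3% had every P7 array above every P1 array, and 18.5% the reverse. Among the 6028 named genes, which are the base for the gene lists, 19.2% were higher and 14.3% lower at an adjusted p under 0.05, with a median change of 0.02.

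The largest rise of a named gene was that of *Rpl3l*, which encodes a form of a large-subunit ribosomal protein found in striated muscle. It had 8.54, 8.34 and 8.32 on the P1 arrays and 10.89, 10.95 and 11.05 on the P7 arrays, a rise of 2.56 (SE 0.103, adjusted p = 2.20e-16), and rose by a further 1.78 to P14. *Lrtm1*, a leucine-rich repeat membrane protein, stood at 8.03, 7.89 and 7.70 at P1 and at 10.10, 10.10 and 10.40 at P7 (change 2.33, adjusted p = 2.15e-14). In both genes the spread within an age was far below the step between the ages. *Scgb1c1*, a small secretoglobin, rose by 2.53 from 7.62, 7.60 and 7.50 to 10.20, 10.08 and 10.04 (adjusted p = 7.45e-12), and fell by 0.77 from P7 to P14. *Pcsk6*, a protease that cleaves proproteins and activates the natriuretic peptide processing enzyme corin, rose by 1.99 from 8.07, 7.84 and 8.14 to 10.03, 10.10 and 9.89 (adjusted p = 7.38e-15).

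*Xirp2*, an actin-binding component of intercalated discs, was barely above background on every P1 array, at 7.17, 7.18 and 7.19. On the P7 arrays it stood at 8.97, 8.89 and 9.36, a rise of 1.90 (adjusted p = 3.12e-12). It is a known target of the MEF2 factors, and its promoter is shown because it holds a MEF2 motif. The window is that of RefSeq on GRCm38.p6, from 250 bases before to 50 bases after the start of the transcript, at chr2:67445752-67446051 on the plus strand, printed 5′ to 3′ with the motif in capitals. CTAAAAATA and TAAAAATAG, the reverse strand of CTATTTTTA, overlap there, from base -74.
Xirp2 promoter: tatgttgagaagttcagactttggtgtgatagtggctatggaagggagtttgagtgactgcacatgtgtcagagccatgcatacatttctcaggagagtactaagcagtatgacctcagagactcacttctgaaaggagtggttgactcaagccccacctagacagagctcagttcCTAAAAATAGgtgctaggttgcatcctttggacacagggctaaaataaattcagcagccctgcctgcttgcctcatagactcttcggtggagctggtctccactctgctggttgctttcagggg
MEF2 motifs, CTATTTTTA or CTAAAAATA on either strand, were in 0.901% of the 32851 promoter windows of the genome, in 0.624% of the 6414 windows of named genes, in 1.15% (4 windows) of those of genes called higher and in 0.725% (1 window) of those of genes called lower.

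**Figure D1:**
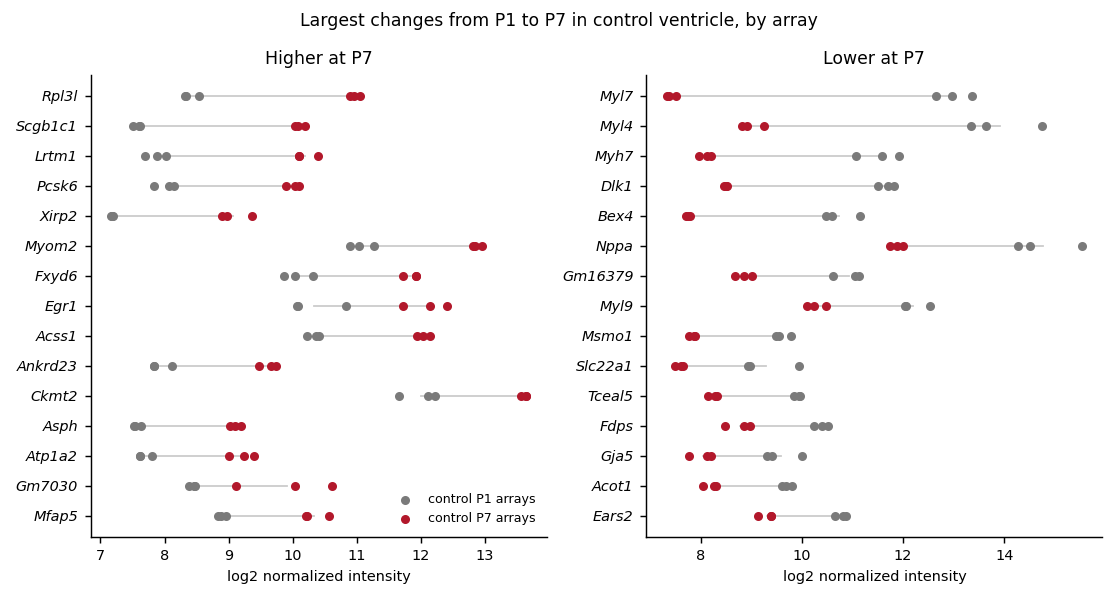
Log2 normalized intensity (x axis) of the 15 named genes with the largest rise (left) and the 15 with the largest fall (right) from P1 to P7 among called genes whose arrays do not overlap; each point is an array, with 3 control P1 arrays in grey and 3 control P7 arrays in red, and the line joins the group means. The steps range from 1.44 for *Mfap5* to 2.56 for *Rpl3l* among the rises and from -1.47 for *Ears2* to -5.59 for *Myl7* among the falls.

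Sarcomere genes fell mainly among the fetal and atrial isoforms, while few adult ventricular isoforms changed. Of 10 measured genes of fetal and skeletal sarcomere isoforms, 6 were lower and 0 higher, with a median of -0.518. *Myh7*, which encodes the slow myosin of the ventricle before birth in mice, had 11.08, 11.59 and 11.93 at P1 and 8.21, 8.12 and 7.97 at P7 (change -3.43, SE 0.168, adjusted p = 9.83e-15). *Myl4*, the essential light chain of atrium and fetal ventricle, fell by 4.91 from 14.75, 13.63 and 13.34 to 8.92, 8.81 and 9.25 (adjusted p = 8.73e-09). *Myl9*, a regulatory light chain of smooth muscle and non-muscle cells, fell by 1.93 from 12.05, 12.53 and 12.03 to 10.48, 10.25 and 10.10 (adjusted p = 1.04e-07). In all 3 genes the lowest P1 array was above the highest P7 array. *Myl1*, *Tnnt1* and *Acta2*, which encode light chain, troponin T and actin isoforms of other muscles, changed by -1.16, -0.56 and -0.47, the last with overlapping groups, where *Tnnt1* did not pass the test without P1 replicate 3 or P7 replicate 2, and *Acta2* did not without P1 replicate 1, P1 replicate 3, P7 replicate 2 or P7 replicate 3.

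Of 17 measured genes of the ventricular sarcomere, 5 were higher and 0 lower, against 19.2% and 14.3% of all named genes. The median of the list was 0.074. *Myom2*, a protein of the M-band that crosslinks thick filaments, rose by 1.80 from 11.27, 10.89 and 11.04 to 12.85, 12.81 and 12.95 (adjusted p = 6.59e-10), and had a change of -0.06 from P7 to P14. *Cmya5*, a large protein of the costamere and the Z-disc, rose by 1.25 from 9.43, 9.22 and 9.39 to 10.57, 10.45 and 10.77. The Z-disc protein genes *Myoz2* and *Ldb3* changed by 0.56 and 0.38, and *Mybpc3*, myosin binding protein C, by 0.48 (0.31 without P7 replicate 3). *Ldb3* did not pass the test without P1 replicate 1, P1 replicate 3 or P7 replicate 1. *Myh6*, *Myl2* and *Tnni3*, the main myosin chains and troponin I of the adult mouse ventricle, had changes of 0.07, 0.12 and 0.08 and overlapping groups.

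All 6 measured genes of the atrial cardiomyocyte list were lower at P7, with a median of -1.352. *Myl4* and *Myl1* are counted both here and among the fetal and skeletal sarcomere isoforms. On each of them P1 replicate 1 was the highest of the P1 arrays. *Nppa*, atrial natriuretic peptide, which the fetal ventricle also makes, stood at 15.53, 14.51 and 14.27 at P1 and at 11.99, 11.74 and 11.89 at P7 (change -2.89, adjusted p = 9.39e-08). *Gja5*, connexin 40 of the atrium and the conduction system, fell by 1.55 from 10.01, 9.31 and 9.42 to 8.12, 7.78 and 8.20 (adjusted p = 2.94e-09). Without P1 replicate 1 the changes were -4.49 for *Myl4*, -2.51 for *Nppa*, -1.33 for *Gja5*, -1.01 for *Stard10* and -0.93 for *Myl1*, and that of *Dkk3* went from -0.86 to -0.47 and did not pass the test (adjusted p = 0.0541). The 3 defining atrial markers that were measured, *Myl4*, *Nppa* and the separately named *Myl7*, summed to 8.542e+04, 4.408e+04 and 3.648e+04 in linear intensity on the P1 arrays and to 4725, 4043 and 4597 on the P7 arrays. The part that atrial tissue in the samples had in these falls was not tested.

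A shift between paralogs was measured within each array, as the log2 signal of the adult member minus that of the neonatal member, for 13 of 17 pairs listed. Of these 13, 11 shifted to the adult member and 2 did not pass the test in either direction (limma, adjusted over the 13 pairs). The largest shifts were in myosin chains, by 5.71 (SE 0.539) for *Myl2* over *Myl7*, 4.79 (SE 0.528) for *Myl3* over *Myl4* and 3.51 (SE 0.218) for *Myh6* over *Myh7*. In these the neonatal member carried the shift, since *Myl2*, *Myl3* and *Myh6* themselves had changes of 0.12, -0.12 and 0.07. *Myl7* and *Myl4* are also atrial markers. P1 replicate 1 had the lowest difference, at 1.73 against 2.53 and 2.76 for *Myl2* over *Myl7*. For *Myl3* over *Myl4* it had 0.82 against 2.00 and 2.23. The part of atrial tissue in the shifts of both pairs was not tested. *Rpl3l* over *Rpl3* shifted by 2.46, and there the muscle member moved. Cytochrome c oxidase, the last complex of the respiratory chain, has heart and ubiquitous forms of 3 subunits, which shifted by 1.16 for *Cox6a2* over *Cox6a1*, 0.94 for *Cox7a1* over *Cox7a2* and 1.41 for *Cox8b* over *Cox8a*. All 3 ubiquitous members fell, *Cox6a1* by 0.99, from 13.56, 13.83 and 13.68 to 12.72, 12.60 and 12.77, *Cox7a2* by 0.51 and *Cox8a* by 0.74.

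Glucose handling shifted by 1.76 in hexokinase (*Hk2* over *Hk1*), 1.47 in enolase (*Eno3* over *Eno1*) and 0.91 in the glucose transporter (*Slc2a4* over *Slc2a1*). The elongation factor *Eef1a2* shifted over *Eef1a1* by 0.80. The creatine kinases *Ckm* and *Ckb* shifted by 0.02 (SE 0.187, adjusted p = 0.9067), and the adenine nucleotide carriers *Slc25a4* and *Slc25a5* by 0.06 (SE 0.150, adjusted p = 0.7405). Members *Myl7*, *Cox8a*, *Eno1*, *Hk2* and *Slc25a4* take their probe from the study's supplementary tables. Those tables hold genes that the study selected on these arrays. The pairs with these members are nevertheless kept in the counts of shifted pairs, where all of them but *Slc25a4* over *Slc25a5* shifted to the adult member.

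**Figure D2:**
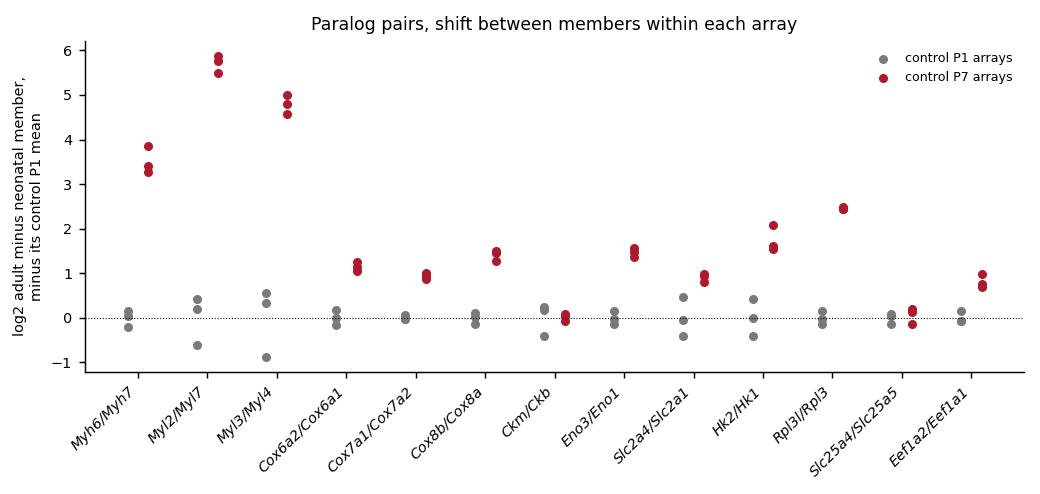
Shift between the members of 13 paralog pairs: each point is an array's log2 signal of the adult member minus that of the neonatal member, less the mean of that difference over the control P1 arrays (y axis, log2), with 3 control P1 arrays in grey and 3 control P7 arrays in red. The P7 arrays lie above all P1 arrays in 11 pairs and overlap with them in *Ckm*/*Ckb* and *Slc25a4*/*Slc25a5*.

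Genes of calcium handling moved in both directions, with 6 of 20 higher, 4 lower and a median of 0.080, against 19.2% and 14.3% of all named genes. The risers include parts of the release machinery of the sarcoplasmic reticulum, the calcium store of the muscle cell. *Asph*, whose locus also encodes junctin and junctate of that store, rose by 1.54 from 7.64, 7.52 and 7.54 to 9.20, 9.02 and 9.10 (adjusted p = 8.01e-11). *Hrc*, a calcium-binding protein of its lumen, rose by 0.99 from 11.26, 11.12 and 11.17 to 12.03, 12.07 and 12.43. *Ryr2*, the release channel, rose by 0.77 from 12.02, 12.12 and 12.30 to 12.98, 12.70 and 13.07. The pump *Atp2a2*, its inhibitor *Pln* and the calcium sensor *S100a1* changed by 0.28, 0.56 and 0.46.

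*Slc8a1*, the sodium-calcium exchanger that removes calcium through the cell membrane, fell by 0.80, from 12.32, 12.42 and 12.41 to 11.70, 11.27 and 11.77. *Camk2g* (-0.58), *Cav3* (-0.38) and *Sri* (-0.33) were the other 3 that were lower. *Cav3* did not pass when any one of the 6 arrays was left out, and *Sri* did not without P1 replicate 2, P1 replicate 3 or P7 replicate 1, where 2 genes of the list were lower in each case. Of 6 potassium and sodium channel and pump genes measured, 3 were higher. These were *Kcnj8* and *Abcc9*, the pore and the receptor of the ATP-sensitive potassium channel, by 0.96 and 0.46, and *Kcnip2*, the subunit that speeds the transient outward current, by 0.57. *Kcnj8* and *Abcc9* also mark pericytes. Of the 3 measured defining markers of pericytes and smooth muscle, *Rgs5* rose by 1.27, *Pdgfrb* had a change of 0.26 (adjusted p = 0.0964) and *Acta2* one of -0.47. They summed to 2.026e+04 to 2.536e+04 in linear intensity at P1 and to 1.434e+04 to 2.145e+04 at P7. That sum is almost all *Acta2*, whose groups overlapped, since the P1 means were 14.41 for *Acta2*, 9.10 for *Rgs5* and 7.74 for *Pdgfrb*. It therefore does not describe pericytes. The part of pericytes in the rise of the channel genes was not tested. At the intercalated disc, which joins the muscle cells end to end, 5 of 14 genes were higher and 2 lower. The shares among all named genes were 19.2% and 14.3%. Beside *Xirp2*, the adaptor *Tjp1* rose by 0.57, the adhesion proteins *Cxadr* and *Ctnnb1* by 0.45 and 0.44 and the ventricular connexin *Gja1* by 0.40 (not past the test without P1 replicate 1, P1 replicate 3 or P7 replicate 2), while *Bves*, a cAMP-binding membrane protein, fell by 1.19.

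Fuel genes gave a mixed picture in which lists differed in direction. Of 30 measured genes of fatty acid uptake and oxidation, 10 were higher and 3 lower, against 19.2% and 14.3% of all named genes, with a median of 0.201. *Ech1*, an auxiliary enzyme of the oxidation of unsaturated fatty acids, rose by 0.73 from 12.38, 12.19 and 12.07 to 12.89, 12.92 and 13.02 (adjusted p = 9.74e-05). *Plin5*, which coats the lipid droplets of oxidative cells, rose by 0.74 from 9.18, 9.01 and 8.90 to 9.74, 9.73 and 9.85 (adjusted p = 5.65e-04). *Acadm*, the medium-chain dehydrogenase, rose by 0.51 from 13.77, 13.52 and 13.72 to 14.15, 14.21 and 14.18 (adjusted p = 2.98e-05). For each of these genes all P7 arrays were above all P1 arrays.

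*Pnpla2*, the lipase that opens lipid droplets, and *Hadhb*, a subunit of the trifunctional enzyme, changed by 0.61 and 0.56, the former by 0.39 without P1 replicate 2. *Decr1* changed by 0.63, but its P1 replicate 1, at 9.15, was above all 3 P7 arrays, and its change was 1.05 without that array. It did not pass without P1 replicate 2 (0.40), P1 replicate 3 (0.44) or P7 replicate 3 (0.54). *Cpt1b*, the carnitine transferase that admits fatty acids to the muscle mitochondrion, had 12.04, 11.54 and 11.82 at P1 and 12.17, 11.96 and 12.22 at P7, with overlapping groups (change 0.31, adjusted p = 0.0706). The 3 genes that fell were *Dgat2*, an enzyme of triglyceride synthesis, by 0.72 from 9.95, 10.59 and 10.57 to 9.55, 9.57 and 9.83, the thioesterase *Acot2* by 0.61 and the lipid droplet protein *Cidea* by 0.50, which did not pass without P1 replicate 2 or P7 replicate 1. *Acot1*, a cytosolic thioesterase outside this list, fell by 1.5 from 9.61, 9.68 and 9.81 to 8.04, 8.31 and 8.27 (adjusted p = 2.73e-06). With median scaling in place of quantile normalization, 6 genes of the list were higher and 5 lower, against 10 and 3.

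The first week of the Sox6 KO ventricle shares no array with that of the control, and the difference between the genotypes was tested for each gene. In KO ventricles 26 of the 30 were higher at P7 and 0 lower, with a median of 0.710, and for 16 of the 30 the change differed between the genotypes at an adjusted p under 0.05 (limma interaction), against 4.65% of all probes. All 16 had the smaller rise, or a fall, in control. The share of all named genes that were higher or lower in KO at an adjusted p under 0.05 is not given here. The control shares are no base for the KO counts of this list or of others. The mean log2 signal over the 30 genes was 11.50, 11.43 and 11.46 on the control P1 arrays and 11.60, 11.59 and 11.68 on the control P7 arrays. On the KO arrays it was 11.10, 10.67 and 10.63 at P1 and 11.49, 11.58 and 11.53 at P7, so that the genotypes stood apart at P1 and close together at P7. *Slc25a20*, the carnitine carrier of the inner membrane, had a change of -0.22 in control and 1.12 in KO (difference -1.34, adjusted p = 1.04e-04). *Cpt2*, the second carnitine transferase, changed by 0.27 in control and 1.11 in KO (difference -0.84, adjusted p = 0.0023).

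**Figure D3:**
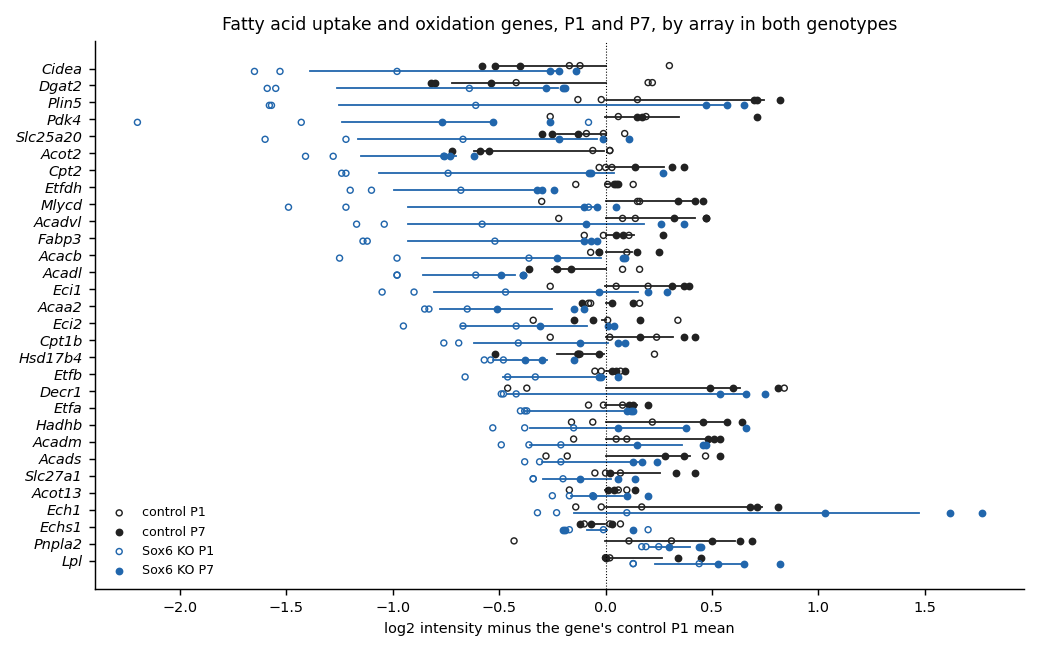
Change of 30 genes of fatty acid uptake and oxidation in both genotypes: each point is an array's log2 intensity minus the gene's mean over the control P1 arrays (x axis), open circles are P1 and filled circles P7, black is control and blue Sox6 KO, and lines join the group means. For most genes the blue P1 points lie left of the black ones, and the filled points of the genotypes lie near each other.

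Over all probes, 511 were called higher (2.84%) and 479 lower (2.66%) in the KO first week. Of the probes called in control, 250 of 511 higher (48.9% of each genotype's list) and 198 of 403 lower (49.1% of the control and 41.3% of the KO list) were called in KO in the same direction. Among the probes called in control, 24 of the higher and 20 of the lower had the opposite sign in KO, and 84 and 71 had a change that differed between the genotypes. Changes such as those of *Rpl3l* (2.31 in KO), *Xirp2* (1.95) and *Myh7* (-3.62) had the same direction in KO, and their difference between the genotypes had an adjusted p of 0.3705, 0.9005 and 0.7367.

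The oxidative machinery downstream of fatty acid oxidation rose in part. For the control counts, the shares among all named genes were 19.2% higher and 14.3% lower. Complex I, the entry of electrons from NADH, had 10 of 33 genes higher and 0 lower, with a median of 0.180, and in KO 25 were higher and 0 lower, with a median of 0.331. The change differed between the genotypes for 0 of the 33 (limma interaction, adjusted p under 0.05) and for 11 at an unadjusted p under 0.05. Without P1 replicate 1, 2 genes of complex I were lower in control. The mean over its genes was 12.62, 12.81 and 12.72 on the P1 arrays and 12.87, 12.90 and 12.91 on the P7 arrays. *Ndufa1*, an accessory subunit, rose by 0.54 from 13.68, 13.81 and 13.81 to 14.34, 14.30 and 14.25, and *Ndufb2*, *Ndufa4*, *Ndufa3*, *Ndufv3* and *Ndufa13* by 0.37 to 0.57. With median scaling 7 genes of complex I were higher and 3 lower. Of 34 genes of complexes III to V, 12 were higher and 5 lower, but with median scaling 4 were higher and 7 lower, and without P1 replicate 2 the count of lower genes was 2. *Cox8b*, a heart subunit of cytochrome c oxidase, rose by 0.67 from 13.67, 13.66 and 13.58 to 14.28, 14.29 and 14.35.

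Of 24 genes of the tricarboxylic acid cycle and pyruvate entry, 6 were higher, among them *Sdhd* by 0.58 and *Dld* by 0.51, and 1, the isocitrate dehydrogenase subunit *Idh3b*, was lower by 0.53. Among all named genes 19.2% were higher and 14.3% lower. *Ogdh*, of the oxoglutarate dehydrogenase complex, changed by 0.54 and did not pass without P1 replicate 1 (0.29, adjusted p = 0.0924). *Ckmt2*, the mitochondrial creatine kinase of heart and skeletal muscle, which passes the energy of ATP to creatine, rose by 1.62 from 11.66, 12.22 and 12.11 to 13.64, 13.56 and 13.64 (adjusted p = 2.81e-12). *Acss1*, the mitochondrial enzyme that activates acetate, rose by 1.71 from 10.41, 10.37 and 10.22 to 12.03, 11.94 and 12.15 (adjusted p = 3.04e-14). The regulators of mitochondrial genes *Perm1* and *Esrra* changed by 0.68 and 0.23, the latter not past the test without P1 replicate 2, P1 replicate 3, P7 replicate 2 or P7 replicate 3, and *Ppargc1a*, the coactivator of mitochondrial biogenesis, by -0.04 (adjusted p = 0.8816).

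Glycolysis went the other way, with 8 of 15 genes of glycolysis and glucose uptake lower, 4 higher and a median of -0.295. *Pgk1*, which makes the first ATP of the pathway, fell by 0.68 from 12.88 ± 0.19 to 12.20 ± 0.03 (SD, n = 3 each, adjusted p = 5.62e-06), with all P7 arrays below all P1 arrays. *Ldha*, which reduces pyruvate to lactate, fell by 0.50 from 13.37, 13.77 and 13.77 to 13.22, 13.13 and 13.04. *Pfkp*, *Pgam1*, *Slc2a1* and *Hk1* fell by 0.62, 0.61, 0.59 and 0.55, and *Slc2a1* did not pass without P1 replicate 1, P7 replicate 2 or P7 replicate 3. The genes that rose are isoforms of muscle and heart: *Pfkm*, the muscle phosphofructokinase, rose by 0.72 from 12.34, 11.72 and 12.16 to 12.86, 12.68 and 12.85, *Pfkfb2* by 0.42, *Slc2a4* by 0.32 and *Eno3* by 0.31. Of these, *Pfkfb2* did not pass without P1 replicate 2, and *Eno3* did not without P1 replicate 1 or P7 replicate 3. In glycogen metabolism *Gyg*, the primer protein glycogenin, fell by 1.02 from 10.64, 10.97 and 10.79 to 9.77, 9.73 and 9.86. *Ppp1r3c*, which brings protein phosphatase to glycogen, rose by 1.15 from 11.24, 10.41 and 10.74 to 12.01, 11.98 and 11.83.

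Genes of cholesterol and sterol synthesis fell together. Of 6 measured, 5 were lower and 0 higher, with a median of -0.707, against 14.3% of named genes lower. *Msmo1*, which removes methyl groups from the sterol ring, had 9.49, 9.78 and 9.55 at P1 and 7.88, 7.86 and 7.77 at P7 (change -1.77, SE 0.103, adjusted p = 4.81e-13). *Fdps*, which makes farnesyl diphosphate, fell by 1.62 from 10.24, 10.52 and 10.40 to 8.86, 8.48 and 8.97 (adjusted p = 3.32e-12). *Cyp51*, the lanosterol demethylase, fell by 0.70 from 8.03, 8.05 and 7.79 to 7.35, 7.28 and 7.14. All P7 arrays were below all P1 arrays in each of the 5 genes. *Hsd17b7*, which reduces a sterol ketone, fell by 0.71, and *Insig1*, the sterol-regulated anchor of the SREBP escort protein, by 0.60, while *Ebp*, a sterol isomerase, had a change of -0.15 (adjusted p = 0.3107).

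*Hmgcs1*, the synthase that starts the pathway, is named only through the study's supplementary tables and stood at 12.27, 11.79 and 11.96 at P1 and at 11.27, 11.17 and 11.21 at P7 (change -0.79). In KO ventricles 5 of the 6 were lower as well, with a median of -0.418, and the fall was larger in control by 1.09 for *Msmo1* (difference -1.09, adjusted p = 6.96e-05) and by 0.75 for *Fdps* (difference -0.75, adjusted p = 0.0031). The mean over the 6 genes was 8.82, 8.92 and 8.81 at P1 and 7.94, 7.89 and 7.94 at P7 in control, and 8.62, 8.73 and 8.50 at P1 and 8.21, 8.15 and 8.10 at P7 in KO. From P7 to P14 the changes of *Msmo1* and *Fdps* in control were -0.14 and -0.09.

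SREBP-2, the factor that sterols keep from the nucleus, binds sterol response elements in promoters of this pathway beside CCAAT boxes. The windows of *Hmgcs1* (chr13:119690101-119690400, plus strand) and *Msmo1* (chr8:64733529-64733828, minus strand), from RefSeq on GRCm38.p6, are shown with the sterol element TCACNCCAC in capitals in the former and the 3 CCAAT boxes in capitals in the latter.
Hmgcs1 promoter: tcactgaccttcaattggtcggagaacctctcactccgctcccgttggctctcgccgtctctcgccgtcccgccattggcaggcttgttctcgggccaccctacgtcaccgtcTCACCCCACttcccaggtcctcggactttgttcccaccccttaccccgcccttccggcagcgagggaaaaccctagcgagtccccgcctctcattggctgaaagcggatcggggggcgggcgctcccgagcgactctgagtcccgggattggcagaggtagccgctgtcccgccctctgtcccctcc
Msmo1 promoter: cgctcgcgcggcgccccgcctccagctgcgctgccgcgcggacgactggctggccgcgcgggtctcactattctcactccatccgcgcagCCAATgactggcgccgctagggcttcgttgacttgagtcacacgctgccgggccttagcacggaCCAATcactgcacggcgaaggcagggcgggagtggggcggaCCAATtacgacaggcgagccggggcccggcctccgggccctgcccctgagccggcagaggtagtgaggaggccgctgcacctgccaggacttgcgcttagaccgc
The sterol element on either strand was in 1.24% of all promoter windows, 0.982% of those of named genes and 0 of the 5 windows matched to the list, which does not count *Hmgcs1*. CCAAT on either strand was in 37.4%, 37.1% and all 5. These motifs were searched after the changes had been seen, and a match is a description of the letters.

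Genes of class I antigen presentation and the interferon response rose in control. Of 20 measured, 14 were higher and 0 lower, against 19.2% and 14.3% of named genes, with a median of 0.754. *B2m*, the light chain shared by class I molecules, stood at 11.28, 11.57 and 11.37 at P1 and at 11.56, 13.05 and 12.68 at P7 (change 1.02, adjusted p = 8.04e-04). Its groups overlapped, because P7 replicate 1 was below P1 replicate 2. *H2-K1*, a class I heavy chain, rose by 1.33 from 7.41, 7.12 and 7.25 to 7.89, 9.17 and 8.72, and *H2-D1*, another heavy chain, by 1.02 from 9.89, 10.17 and 10.09 to 10.33, 11.67 and 11.20. Class I heavy chains are near-identical in sequence, so that their probes may share signal.

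*Psmb8*, a catalytic subunit of the immunoproteasome, which cuts peptides for class I molecules, rose by 1.03 from 7.27, 7.51 and 7.26 to 7.97, 8.74 and 8.42. Its partner subunits *Psmb9* and *Psmb10* rose by 0.84 and 0.46, and the peptide transporter *Tap2* by 0.59. *Irf1*, a transcription factor induced by interferon, rose by 1.08 from 8.09, 8.02 and 7.93 to 8.93, 9.38 and 8.96. The interferon-induced genes *Gbp2*, *Igtp*, *Rsad2* and *Ifitm1* changed by 0.78, 0.73, 0.83 and 0.48. *Ly6c1*, which is also an endothelial marker, rose by 1.19 from 9.12, 9.47 and 9.23 to 10.47, 10.51 and 10.42, with the P7 arrays close together. *Psme1* (0.06), *Psme2* (-0.03), *Irf9* (0.03), *Ifitm2* (0.11), *Ifitm3* (0.18) and *Irgm1* (0.28) did not pass the test.

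The P7 arrays differed among themselves in this list. Of the 14 genes that were higher, P7 replicate 2 was the highest P7 array in 12, and P7 replicate 1 the lowest in 11. The mean over the 20 genes was 8.91, 8.99 and 8.93 on the P1 arrays and 9.33, 9.82 and 9.62 on the P7 arrays. Without P7 replicate 2, 11 genes were higher and the change of *B2m* was 0.71 (adjusted p = 0.014). Those that no longer passed were *Igtp*, *Rsad2* and *Ifitm1*, and *Rsad2* did not pass without P1 replicate 2 either. Without P7 replicate 1, 15 were higher and the change of *B2m* was 1.46. Macrophage genes followed a like order, since of the 8 that were higher P7 replicate 2 was the highest P7 array in 6 and P7 replicate 1 the lowest in 7. The 2 measured defining markers of macrophages summed to 462, 447.7 and 481.6 in linear intensity at P1 and to 608.8, 764.6 and 699.1 at P7. Their part in the rise was not tested.

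In KO ventricles 6 genes of the list were higher and 0 lower, with a median of 0.224, and the mean over the genes was 8.94, 8.71 and 8.90 at P1 and 9.20, 9.22 and 9.20 at P7. The change differed between the genotypes for 1 of the 20, *H2-K1* (0.05 in KO, difference 1.28, adjusted p = 0.0070). For *B2m* (0.07 in KO) the difference had an adjusted p of 0.0716.

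The promoters of *B2m* (chr2:122147437-122147736, plus strand), *H2-K1* (chr17:34000298-34000597, minus strand) and *H2-D1* (chr17:35262844-35263143, plus strand) are shown for the elements that interferon-regulated factors and NF-kappaB are known to bind in class I genes. They are RefSeq windows on GRCm38.p6. Capitals mark an interferon-stimulated response element of the form GAAANNGAA in *B2m*, from base -139, and the NF-kappaB motif GGGGATTCC in the heavy chains, from bases -111 and -171.
B2m promoter: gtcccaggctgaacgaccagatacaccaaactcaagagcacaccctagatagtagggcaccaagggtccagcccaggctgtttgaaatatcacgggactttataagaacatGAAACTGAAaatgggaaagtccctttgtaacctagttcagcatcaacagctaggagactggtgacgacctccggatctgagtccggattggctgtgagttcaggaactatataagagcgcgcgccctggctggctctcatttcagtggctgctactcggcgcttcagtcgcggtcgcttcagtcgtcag
H2-K1 promoter: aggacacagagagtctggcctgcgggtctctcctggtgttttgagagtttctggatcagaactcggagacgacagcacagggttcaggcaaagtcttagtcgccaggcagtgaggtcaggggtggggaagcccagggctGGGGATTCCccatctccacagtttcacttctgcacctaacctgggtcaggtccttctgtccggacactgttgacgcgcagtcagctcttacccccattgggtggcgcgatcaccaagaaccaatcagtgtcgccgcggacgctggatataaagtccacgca
H2-D1 promoter: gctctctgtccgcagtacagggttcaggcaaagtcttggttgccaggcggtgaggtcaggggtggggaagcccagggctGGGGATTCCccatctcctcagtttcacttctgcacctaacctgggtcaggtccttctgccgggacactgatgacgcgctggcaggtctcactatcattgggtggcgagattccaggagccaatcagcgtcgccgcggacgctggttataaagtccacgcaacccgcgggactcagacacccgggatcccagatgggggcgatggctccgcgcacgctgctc
GAAANNGAA on either strand was in 8.56% of all promoter windows, in 6.52% of those of named genes and in 34.8% of the 23 windows matched to 18 of the 20 genes. GGGGATTCC was in 0.25% of all windows, in 0.234% of those of named genes and in 3 of the 23, which are the 2 overlapping windows of *H2-K1* and that of *H2-D1*. Both motifs were searched after the values had been seen.

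**Figure D4:**
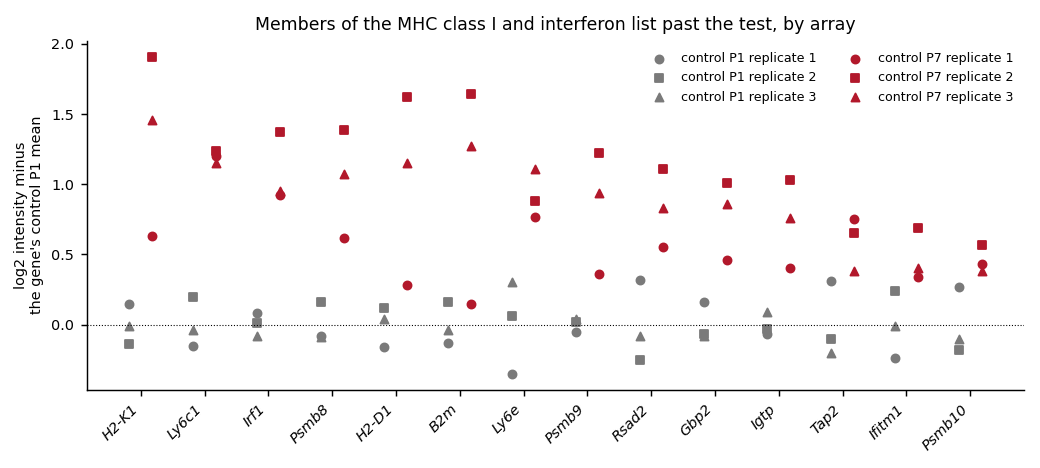
The 14 genes of the class I and interferon list that were higher at P7, by array: each point is an array's log2 intensity minus the gene's mean over the control P1 arrays (y axis), with control P1 in grey, control P7 in red and a marker shape per replicate. P7 replicate 2 (squares) is the highest P7 array in 12 of the 14 genes and P7 replicate 1 (circles) the lowest in 11.

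Many genes of the other cells of the ventricle rose. Of 34 endothelial genes, 22 were higher and 3 lower, with a median of 0.516. *Aqp1*, the water channel of capillaries, rose by 1.44 from 10.59, 10.02 and 10.09 to 11.64, 11.76 and 11.62 (adjusted p = 5.28e-07). *Cldn5*, a claudin of endothelial tight junctions, rose by 1.33 from 10.13, 9.91 and 9.88 to 11.16, 11.32 and 11.41 (adjusted p = 2.41e-07). *Notch4*, *Hey1* and *Sox18*, a receptor, its target and a transcription factor of vessels, rose by 0.92, 0.90 and 0.87. The genes that fell were *Plvap*, a protein of fenestrated and developing endothelium, by 1.31 from 9.48, 8.77 and 8.78 to 7.75, 7.73 and 7.64, and *Lyve1* and *Prox1*, markers of lymphatic endothelium, by 0.99 and 0.30. *Prox1*, which cardiomyocytes express too, did not pass without P1 replicate 1 (-0.17) or P7 replicate 2. The 5 measured defining endothelial markers summed to 6360, 6040 and 5887 in linear intensity at P1 and to 1.019e+04, 1.036e+04 and 1.006e+04 at P7.

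Of 32 genes of fibroblasts and extracellular matrix, 18 were higher and 2 lower, with a median of 0.514. *Mfap5*, a microfibril protein, rose by 1.44 from 8.96, 8.88 and 8.83 to 10.23, 10.57 and 10.21. *Lum*, a proteoglycan of collagen fibrils, rose by 1.28 from 10.43, 10.43 and 10.34 to 11.64, 11.83 and 11.57, and *Col3a1*, fibrillar collagen, by 1.24 from 10.11 ± 0.12 to 11.35 ± 0.30 (SD, n = 3 each). *Sparcl1*, *Ogn* and *Dpt*, which bind collagen or organise the matrix, rose by 1.28, 1.19 and 1.08. *Igfbp5* fell by 1.06 and *Timp3*, an inhibitor of matrix proteases, by 0.45, which did not pass without P7 replicate 3. The 5 defining fibroblast markers summed to 1.019e+04, 1.288e+04 and 1.265e+04 at P1 and to 2.357e+04, 2.043e+04 and 1.739e+04 at P7, with 3 of the 5 higher. The basement membrane around cells had 7 of 15 genes higher and 1 lower, with *Lamc1* and *Lama2*, laminin chains, at 0.77 and 0.66 and their muscle receptors *Dag1* and *Itga7* at 0.69 and 0.68.

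Among 14 macrophage and monocyte genes, 8 were higher and 1 lower in control, while in KO 0 were higher and 4 lower, and the change differed between genotypes for 4. *Laptm5*, a lysosomal protein of blood cells, rose by 1.13 from 9.26, 8.84 and 8.81 to 9.82, 10.30 and 10.17. *Csf1r*, the receptor for the macrophage growth factor, rose by 0.55 from 7.21, 7.20 and 7.27 to 7.65, 7.77 and 7.92. *Lyz2*, lysozyme, changed by 0.57. The count of 8 fell to 4 without P1 replicate 3, to 5 without P7 replicate 2 and to 5 without P7 replicate 3, where *C1qb*, *F13a1*, *Mpeg1* or *Aif1* no longer passed. Of 21 genes of autophagy and lysosome, 9 were higher and 1 lower, with the protease *Ctsb* at 0.75 and the membrane protein *Lamp2* at 0.71.

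Immediate early genes, which cells switch on within minutes of a stimulus, had 8 of 12 higher and 1 lower, with a median of 0.569. *Egr1*, a zinc finger factor, had 10.84, 10.06 and 10.08 at P1 and 12.14, 12.41 and 11.73 at P7 (change 1.76, adjusted p = 2.80e-05). *Dusp1*, a phosphatase of MAP kinases, rose by 1.41 from 11.25, 10.37 and 10.67 to 12.22, 12.26 and 12.04. In both, P1 replicate 1 was the highest P1 array and still below all P7 arrays. *Klf2*, *Klf6*, *Fosl2* and *Jun*, all transcription factors, rose by 0.87, 0.77, 0.74 and 0.63. *Jund* changed by -0.34 and did not pass without P1 replicate 2 (-0.11), P7 replicate 1, P7 replicate 2 or P7 replicate 3, and its change was -0.52 without P1 replicate 1. In KO 4 genes were higher and 1 lower, and the change differed between the genotypes for 2. *Dusp6*, the phosphatase of ERK, changed by 0.43 (adjusted p = 0.0155) without reaching 1.5-fold, and did not pass without P1 replicate 2, P1 replicate 3 or P7 replicate 2.

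Most imprinted genes of fetal growth fell, and the growth hormone receptor rose. Of 8 measured imprinted growth genes, 5 were lower and 1 higher, with a median of -0.452. *Igf2*, the fetal insulin-like growth factor, fell by 0.58 from 15.17, 14.73 and 14.87 to 14.23, 14.28 and 14.50 and by a further 0.98 to P14. *Grb10*, an adaptor that restrains insulin signalling, fell by 0.82 from 12.68, 12.52 and 12.86 to 11.90, 11.76 and 11.93, and *Cdkn1c*, a cyclin kinase inhibitor, by 0.78 from 11.47, 11.25 and 11.23 to 10.50, 10.59 and 10.51. *Igf2r* and *Gnas* fell by 0.66 and 0.32, and *Dcn*, a matrix proteoglycan, rose by 0.88. *Dlk1*, an imprinted inhibitor of differentiation that is named only through the supplementary table of genotype differences, fell by 3.19. *Ghr*, the growth hormone receptor, rose by 1.04 from 9.96, 9.61 and 9.55 to 10.78, 10.56 and 10.89 (adjusted p = 2.25e-09). Over the 19 growth factor and hormone genes 5 were higher and 8 lower, the insulin-like growth factor binding proteins among both: *Igfbp7* rose by 1.20 and *Igfbp4* by 0.53, while *Igfbp5* and *Igfbp3* fell by 1.06 and 0.53. Without P1 replicate 2, and likewise without P7 replicate 2, 3 of these 19 were higher, *Igfbp4* not among them, and 5 lower.

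Genes of cell division were measured by few annotated probes. The annotation largely leaves out genes that were at background at some age. Of 8 mitosis genes 4 were lower and 1 higher, with a median of -0.338. The higher one was *Kif23*, a kinesin of the dividing cell, by 0.33 (not past the test without P1 replicate 1, P1 replicate 3 or P7 replicate 2), but its probes disagreed, since those named through the supplementary tables had changes of -0.61 (adjusted p = 2.30e-04) and -0.06. *Cenpw*, a centromere protein, fell by 1.13 from 9.56, 9.87 and 9.67 to 8.53, 8.59 and 8.61 (adjusted p = 3.90e-12). The 15 further mitosis genes that are named only through the supplementary tables were all lower, and those tables hold genes that the study selected on these arrays. Of 15 genes of DNA replication 6 were lower and 0 higher, with a median of -0.262 and no change past -0.47 (*Pold2*, -0.31 and not past the test without P1 replicate 2). A fit to the 6 arrays alone left 2, and leaving out 1 array left 3 (without P1 replicate 2 or P7 replicate 2) to 5. Of 24 cell cycle regulators 6 were higher and 4 lower, against 19.2% and 14.3% of all named genes, and leaving out 1 array gave 3 (without P7 replicate 2) to 5 higher and 4 to 6 lower. *Cdk4*, the kinase of cyclin D, fell by 0.71 from 10.06, 10.35 and 9.95 to 9.37, 9.45 and 9.40, and *Rb1*, the retinoblastoma protein it inactivates, rose by 0.71 from 8.27, 7.77 and 8.34 to 8.95, 8.64 and 8.92. *Ccnd1*, cyclin D1, had a change of 0.23 (adjusted p = 0.214).

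Of 22 cardiac transcription factors 3 were higher and 7 lower, against 19.2% and 14.3% of all named genes. *Nkx2-5* had 9.35, 10.16 and 9.85 at P1 and 8.94, 9.05 and 9.11 at P7. *Irx2*, *Irx4* and *Irx5*, Iroquois factors of the ventricle, changed by -0.68, -0.46 and -0.31, where *Irx4* did not pass without P1 replicate 2 (-0.30), P1 replicate 3, P7 replicate 1 or P7 replicate 3, and *Irx5* did not without P1 replicate 2, P1 replicate 3, P7 replicate 2 or P7 replicate 3. *Mef2c*, a factor of muscle differentiation, rose by 0.58 from 8.63, 9.43 and 9.23 to 9.85, 9.65 and 9.52, and by 0.34 without P1 replicate 1. *Klf9*, a target of glucocorticoids, rose by 0.90 in control and fell by 0.99 in KO (difference 1.89, adjusted p = 5.84e-08).

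Most genes of the general machinery of RNA and protein that passed the test were lower. Of 36 cytosolic ribosomal proteins 13 were lower and 0 higher, with a median of -0.175 and no call at 1.5-fold. This count was 24 with median scaling and 6 with normalization and fit over the 6 arrays alone. A further probe of *Rps9*, named through the supplementary tables, rose by 0.54, while the counted one had a change of -0.07. *Rps19* fell by 0.36 from 13.48, 13.68 and 13.54 to 13.15, 13.35 and 13.13. Of 29 translation factors 12 were lower and 3 higher, and of 36 splicing factors 13 were lower and 4 higher. The shares among all named genes were 14.3% lower and 19.2% higher. Of the translation factors 7 were lower without P1 replicate 2 and 8 without P7 replicate 3, and of the splicing factors 8 were lower without P1 replicate 3 and 2 higher without P7 replicate 1. Genes used in differentiated muscle or nerve are among those that rose. *Rbfox1*, a splicing regulator of heart and brain, rose by 1.18 from 8.76, 8.61 and 8.68 to 9.82, 9.80 and 9.96, and *Mbnl1* and *Mbnl2*, which set adult splicing patterns, changed by 0.23 and 0.39, the former not past the test without P1 replicate 1, P1 replicate 3, P7 replicate 1 or P7 replicate 3. *Eef1a2*, the elongation factor of muscle and neurons, rose by 0.56.

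Of 19 genes of serine, one-carbon and nucleotide synthesis 7 were lower and 0 higher, led by *Aprt*, which salvages adenine, by 0.83 from 10.38, 10.64 and 10.40 to 9.57, 9.68 and 9.69. Tubulins moved in opposite directions, where *Tubb2b* fell by 1.35 from 11.85, 11.76 and 11.78 to 10.47, 10.45 and 10.42 and *Tuba8*, the tubulin of muscle and testis, rose by 1.17 from 7.05, 7.10 and 7.20 to 8.31, 8.22 and 8.32. Small heat shock proteins did so too, with *Hspb8* up by 1.32 from 11.39, 10.91 and 11.03 to 12.50, 12.32 and 12.47 and *Hspb1* down by 0.94 from 11.52, 11.55 and 11.43 to 10.63, 10.61 and 10.45. Of 25 antioxidant and xenobiotic genes 9 were lower and 3 higher, against 14.3% and 19.2% of all named genes. The count of higher genes was 1 without P1 replicate 2 and 2 without P1 replicate 3 or P7 replicate 3. *Gpx3*, an extracellular glutathione peroxidase, fell by 1.39 from 11.87, 11.40 and 11.33 to 10.03, 10.15 and 10.26, and *Mt1*, metallothionein, by 0.82 from 13.56, 13.67 and 13.52 to 12.73, 12.75 and 12.82.

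Of 14 hypoxia and HIF target genes 6 were higher and 2 lower, against 19.2% and 14.3% of all named genes. The directions were opposite among targets of the same factor. *Mif*, a cytokine, fell by 0.99 from 13.93, 13.70 and 13.75 to 12.78, 12.69 and 12.92, and the glucose transporter *Slc2a1* by 0.59, past the test with all arrays but not without P1 replicate 1, P7 replicate 2 or P7 replicate 3. *Egln3*, an oxygen-sensing hydroxylase, *Vegfa*, the vessel growth factor, and *Higd1a*, a mitochondrial protein, rose by 0.84, 0.61 and 0.61. Of 8 circadian genes 4 were higher, with *Bhlhe40*, a repressor of the clock, up by 1.10 from 8.83, 8.65 and 9.02 to 10.20, 9.92 and 9.68.

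**Figure D5:**
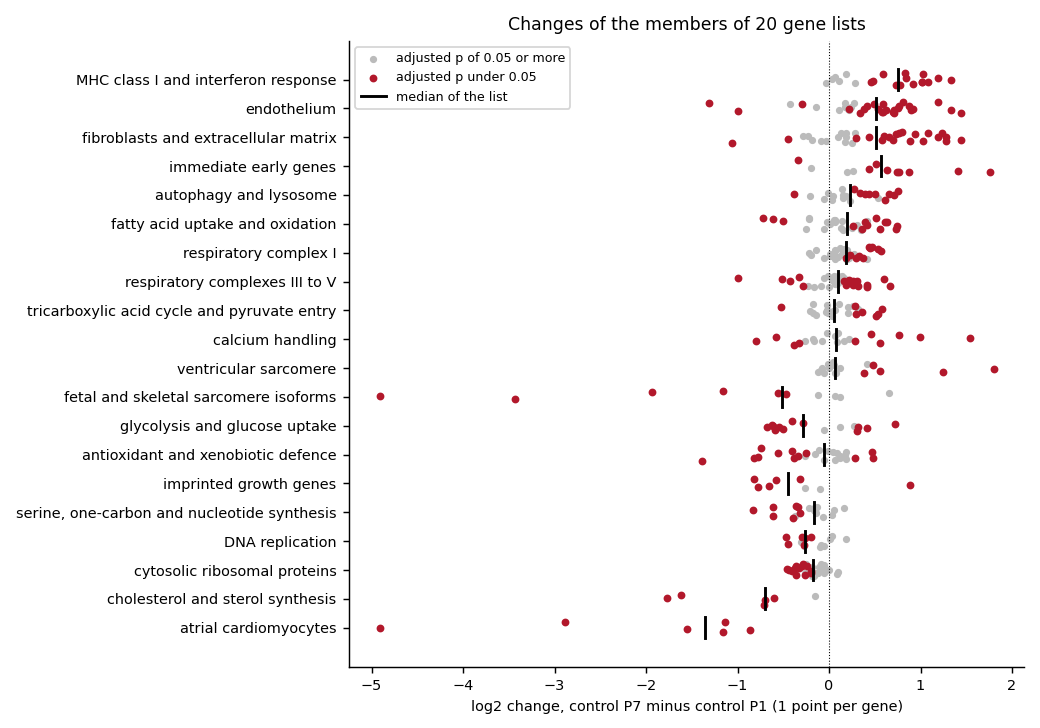
Change from P1 to P7 in control ventricle (x axis, log2) of the members of 20 gene lists: each point is a gene, red where its adjusted p was under 0.05 and grey otherwise, and the black bar is the median of the list. The medians range from 0.754 for the class I and interferon list to -1.352 for the atrial list.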

How the data were processed

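RNA of whole ventricles was hybridised to Illumina MouseWG-6 v2.0 arrays. The authors exported signal intensities with IlluminaExpressionFileCreator and deposited them without normalization; version and background setting: not given in the sources used here. Of 46255 rows, 974 are controls, of which 936 were taken as negative controls, and detection p-values are empty. A second deposited table of 6784 normalized intensities matched quantile normalization of the same probes within 4.8e-10 (log2). The submitters' processing notes name limma.

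Of 45281 probes, 17997 were above background (negative-control mean + 2 SD) throughout the 3 arrays of some group among the 10. Deposited intensities were log2 transformed, quantile normalized over 30 arrays without background correction, and fitted with limma 3.58.1 in R 4.3.3, with 1 mean per group and 20 residual and 6.72 prior degrees of freedom. The fit was tested on simulated data. The number of arrays limits the precision.

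Gene names came from the platform annotation (6074 probes with 1 symbol) and, for 230 and 211 more, from the study's supplementary tables of age-variable genes and of genotype differences; these last were left out of list counts. The probe with the highest mean stood for a gene. Named genes were the 15 largest non-overlapping called changes each way, up to 6 per direction of each list described, members of small counts, the paralog pairs, the 8 smallest p-values of the genotype difference, and genes the paper names. Members that did not pass were chosen for mention after their values were seen. The 50 gene lists, the pairs and these rules were chosen with earlier results of these data known. The motifs MEF2, E2F, ERR, NRF1 and TATA were planned, the others added; 4957 of 6028 named genes matched a RefSeq promoter. Windows of genes called higher, genes called lower, all named genes and the genome held E2F motifs in 1.73%, 2.9%, 2.57% and 1.56%, ERR in 0.288%, 0%, 0.265% and 0.423%, NRF1 in 2.88%, 3.62%, 5.68% and 2.71%, and TATA in 11.8%, 5.07%, 7.27% and 13.6%. A further paralog pair is not reported here. Alternatives were other filters, normalizations, background correction, fits, thresholds, the replicate block and leaving out each array.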

Additional observations from a re-analysis of the deposited data

Results flagged for a closer look

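Each gene here is named in the report, belongs to a gene list it describes, or belongs to the list of fasting, FOXO and glucocorticoid targets. Its change from P1 to P7 in control differed from that in Sox6 KO ventricle at an adjusted p under 0.05 (limma interaction over all probes). The difference is the control change minus the KO change, in log2, over 3 arrays per group. Of all probes, 837 reached that threshold. Of the 13 measured fasting, FOXO and glucocorticoid targets, 3 were higher and 1 lower in control, and 0 higher and 7 lower in KO. For 5 of the 13 the change differed between the genotypes, always with a positive difference.

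The most numerous group was that of fatty acid genes, all with a negative difference. The largest were *Dgat2* (-1.76, from -0.72 in control and 1.04 in KO), *Cidea* (-1.67, from -0.50 and 1.17), *Slc25a20* (-1.34), *Plin5* (-1.07) and *Acot2* (-1.06). The difference was -0.89 for *Ech1*, -0.84 for *Cpt2*, -0.72 for *Acacb*, -0.72 for *Fabp3*, -0.69 for *Acadl*, -0.68 for *Acadvl*, -0.65 for *Etfdh*, -0.60 for *Eci1*, -0.51 for *Acaa2*, -0.43 for *Etfb* and -0.35 for *Etfa*. For *Fabp3*, the fatty acid binding protein of heart, the control means were 15.30 at P1 and 15.43 at P7 and the KO means 14.37 and 15.23. Outside the list, *Acot1* had a difference of -1.34, *Ckmt2* of -0.67, *Perm1* of -0.73, *Esrra* of -0.50 and *Cox6a1* of -0.45.

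A second group had a positive difference, and all of its genes had a negative change in KO. *Klf9* went from 9.82 to 10.72 in control and from 11.18 to 10.19 in KO (difference 1.89, adjusted p = 5.84e-08). *Sgk1*, a kinase induced by glucocorticoids, had a difference of 1.54, *Per1*, a gene of the circadian clock, of 1.91, *Sesn1* of 1.18, *Klf6* of 1.37, *Egln3* of 1.18 and *Mef2c* of 0.96. *Pam*, an enzyme that amidates peptides, had a difference of 2.20 and *AK009928*, a transcript without a gene symbol here, of 1.62. *Cebpb* differed by 1.38 and *F2r*, the thrombin receptor, by 1.28, with changes of -0.11 and 0.06 in control and of -1.49 and -1.22 in KO. *Nudt6* rose from 8.96 to 9.26 in control and fell from 8.22 to 7.01 in KO (difference 1.51, adjusted p = 2.59e-10). In the other direction, *Tfrc*, the transferrin receptor, went from 10.85 to 10.94 in control and from 9.74 to 11.87 in KO (difference -2.04), and *Kif1b*, a kinesin, had a difference of -1.22.

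Of the lists of other cells, 4 of 14 macrophage and monocyte genes, 4 of 34 endothelial genes and 3 of 32 genes of fibroblasts and matrix differed between the genotypes, all with a positive difference, and *Lyve1* is in the first 2 lists. Over these and other lists the difference was 1.28 for *H2-K1*, 1.20 for *Gm7030*, 0.94 for *Laptm5*, 0.82 for *F13a1*, 0.81 for *C1qb*, 0.87 for *Lyve1*, 0.98 for *Aqp1*, 0.66 for *Hey1*, 0.62 for *Sparcl1*, 0.62 for *Timp3* and 0.59 for *Lamp2*. *Gm7030* followed the array order of the class I genes, at 8.48, 8.38 and 8.46 on the P1 arrays and 9.11, 10.61 and 10.03 on the P7 arrays.

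Sterol genes fell further in control, with a difference of -1.09 for *Msmo1*, -0.75 for *Fdps* and -0.61 for *Hmgcs1*. Among genes that fell in both genotypes, the difference was -0.69 for *Bex4*, -0.66 for *Tceal5* and -0.51 for *Dlk1*, and 1.88 for *Myl1*, 1.19 for *Slc2a1*, 0.71 for *Pfkp* and 0.60 for *Igfbp3*. *Fxyd6*, a regulator of the sodium pump, and *Ghr* rose in both, with differences of 1.04 and 0.53. The pair *Slc2a4* over *Slc2a1* shifted by 0.91 in control and by 2.13 in KO (difference -1.23, adjusted p = 0.0182 over the 13 pairs).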

How the results depend on the processing

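In control, 511 probes were called higher and 403 lower, and with normexp background correction, which spreads dim probes, 1064 and 925. The counts were 327 and 206 in the processed table of 6784 probes, 2184 and 2244 at an adjusted p under 0.05 with no minimum fold, and 114 and 113 at 2-fold. Fits to the 6 arrays alone gave 420 and 296, and median scaling 551 and 571, so that more probes were lower than higher, while the median change over all probes went from -0.01 to 0.02. In KO the 511 and 479 calls became 1150 and 1148 with normexp and 327 and 229 in the processed table, and 309 were lower among probes detected on all 30 arrays. The 837 probes that differed between the genotypes became 1654 with median scaling, a change whose cause was not tested, and 522 in the processed table.

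Leaving out 1 array gave 470 to 626 higher and 332 to 553 lower calls in control, 449 to 599 and 426 to 597 in KO, and 467 (without KO P1 replicate 3) to 1821 (without control P1 replicate 1) probes that differed. It left 11 pairs shifted to the adult member and 0 to the neonatal member. Of 468 single gene changes past the threshold none reversed under an alternative that tested it. All 468 were tested except with probes detected on all 30 arrays, where 438 were, and in the processed table, where 437 were. The number that no longer passed was 108 with a fit to the 6 arrays, 109 with that normalization too, 45 with median scaling, 68 with normexp and 61 to 84 without 1 array.

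The deviations of P1 and P7 arrays of the same replicate number correlated at 0.0957, 0.125 and -0.0178. These values show no pairing of the samples by number, and with so few arrays they cannot exclude one. With the replicate block 512 probes were called higher and 404 lower. The chip as a block was not run, since no file used here gives an array's chip. The signal over background limits the folds of dim probes, and with 3 arrays against 3 an exact permutation test of a single value cannot go below 0.10.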
